A study of Homo sapiens with 6 samples.

Results

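Expression of 31 genes of peroxisome assembly and peroxisomal metabolism was followed in HCT116, an established line of human colorectal cancer cells. The members were taken by gene symbol, and every probe set that the platform's gene table assigns to a member alone was used. Of the 31 members, 29 had such a probe set, 80 probe sets in all, out of 18132 genes and 49293 probe sets tested. PEX13 and SCP2 had no probe set with their symbol alone and were not analysed here.

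The cells were transduced for 72 h with a lentivirus carrying either a short hairpin RNA against PNO1 (sh-PNO1, 3 arrays) or a control hairpin (sh-Ctrl, 3 arrays). Both groups therefore carried a lentivirus and a hairpin, the labels give 1 cell line, and no untransduced cells were compared. PNO1 is a nucleolar protein needed to mature the small ribosomal subunit. Whether the arrays of a group stand for separate cultures is not stated, and the p-values therefore describe array-to-array spread that may be only technical. In such bulk RNA, fewer cells of a kind and less RNA per cell cannot be told apart.

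Peroxisomes are membrane-bound organelles that shorten very-long-chain and branched fatty acids, make the first intermediates of ether lipids and break down hydrogen peroxide. Their matrix enzymes are made in the cytosol and carried in by the receptors PEX5 and PEX7, which are then pulled back out of the membrane for another round. Their membrane proteins take another route through PEX19, PEX3 and PEX16. New peroxisomes form largely by growth and division of old ones, in which the PEX11 proteins take part.

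The arrays gave 1 intensity per probe set, on a linear scale that the authors had already normalised between arrays, so a change is measured against the bulk of that array's probe sets. The array medians lay between 25.6 and 25.9. Changes are given as log2 fold changes, sh-PNO1 minus sh-Ctrl, with the standard error (SE) from limma. A gene is represented by its probe set with the highest mean over the 6 arrays, called the brightest here, and its adjusted p comes from the fit over 18132 genes. Adjusted p-values given for a numbered or further probe set of a gene come from the fit over 49293 probe sets, where probe set 1 is the brightest of its gene. A gene or probe set passed, and is said to have risen or fallen, at an adjusted p under 0.05. The 23 background probe sets of the array had group means of 2.52 to 804 and a median of 4.24. All 80 member probe sets exceeded that median in both groups, and none exceeded the brightest background probe set, so changes of dim members may be understated.

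The hairpin lowered its target on each of 3 PNO1 probe sets. The brightest read 105, 108 and 105 on the sh-PNO1 arrays, against 535, 535 and 532 on the sh-Ctrl arrays (log2 fold change −2.33 ± 0.04 SE). An exact two-sided permutation test gave p = 0.1, the smallest that 3 arrays against 3 allow. Of the epithelial markers EPCAM, KRT8, KRT18, KRT19, CDH1, CLDN4 and VIL1, all but VIL1 had group means of 232 or more, and VIL1 averaged 4.38 in sh-PNO1 and 4.88 in sh-Ctrl. KRT19 and CDH1 rose (0.37 and 0.31). The 11 measured markers of blood, vessel, fibroblast and liver cells had group means of 3.65 to 39.7, and none of them passed. Their summed intensity was 175 to 178 on the sh-PNO1 arrays and 172 to 182 on the sh-Ctrl arrays. A sign of RNA quality, the log2 difference between the 3' and 5' probe sets of ACTB, was 2.25 on sh-PNO1 replicate 2, against 1.73 to 1.79 on the other sh-PNO1 arrays and 1.82 to 1.87 on the sh-Ctrl arrays. The same difference for GAPDH was small and separated the groups without overlap, at −0.08 to −0.06 on the sh-PNO1 arrays and −0.03 to −0.01 on the sh-Ctrl arrays. The part of either in the results was not tested. PEX14 and PEX10 lost their calls without sh-PNO1 replicate 2, as they did without most other single arrays.

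Of the 29 members measured, 10 rose and 4 fell, while 15 did not pass. Over all genes tested 20.0% rose and 14.2% fell, against 34.5% and 13.8% of the members. Fewer members fell when an array was left out: 2 without sh-PNO1 replicate 1, without sh-Ctrl replicate 1 or without sh-Ctrl replicate 3. The share of all genes was not counted on fewer arrays. The median log2 fold change was 0.033 for the members and 0.025 for all genes. Among the members that passed, the median size of the change was 0.31, and that of all genes that passed was also 0.31. The members that rose were PEX5, PEX14, PEX2, PEX16, PEX19, PEX11A, ABCD3, PXMP4, ACAA1 and GNPAT. Those that fell were PEX10, PEX6, PXMP2 and ACOX2. PEX19 was the only member of the 29 whose brightest probe set changed by 0.5 or more; the other 28 lay between −0.32 and 0.47.

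Counted by probe set, 21 of the 80 rose, 6 fell and 53 did not pass. The shares were 26.2% and 7.5%, against 14.8% and 13.2% of all probe sets tested. PEX14, PEX2 and PEX10 passed in the fit over genes, but their brightest probe sets did not in the fit over probe sets. The SE of a member probe set ran from 0.04 to 0.16 on the log2 scale. In 17 of the 29 members the 3 sh-PNO1 arrays lay wholly above (13 members) or wholly below (4 members) the 3 sh-Ctrl arrays on the brightest probe set. That is 58.6% of the members, against 44.7% of all genes. Of the 21 members with at least 2 probe sets, only GNPAT (4 higher) and PXMP2 (3 lower) passed on all of them with 1 sign. That is 9.52% of these members, against 11.0% of all genes with at least 2 probe sets. AGPS was the only member with probe sets that passed in opposite directions.

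**Figure D1:**
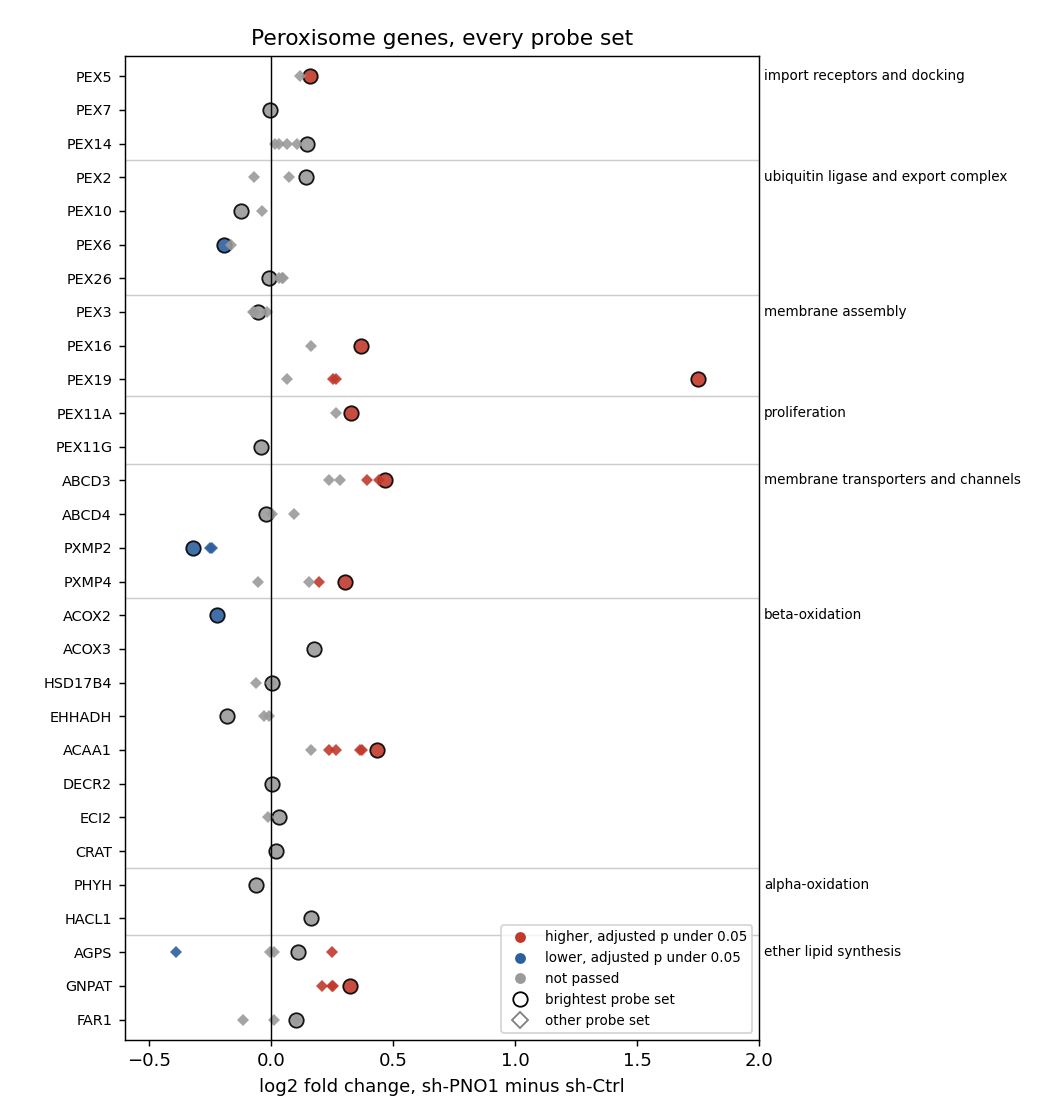
Log2 fold change, sh-PNO1 minus sh-Ctrl, of all 80 member probe sets, 1 row per gene, grouped by role. Large circles are the brightest probe set of a gene and diamonds its other probe sets, and colour marks those that passed an adjusted p of 0.05 in the fit over 49293 probe sets. PEX19 has 1 probe set at 1.75 and 3 between 0.07 and 0.26, and AGPS spreads from −0.39 to 0.25.

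The largest change was in PEX19, the cytosolic chaperone and import receptor that brings newly made membrane proteins to the peroxisome. Probe set 1 of PEX19 read 85.1, 79.7 and 84.0 on the sh-PNO1 arrays, against 26.3, 26.3 and 21.6 on the sh-Ctrl arrays. The groups were far apart, and the sh-PNO1 mean of 82.9 ± 2.85 was 3.37 times the sh-Ctrl mean of 24.7 ± 2.70 on the log scale (SD, n = 3 each). In limma the difference was 1.75 ± 0.08 SE on the log2 scale, with an adjusted p of 5.74e-06.

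The other 3 PEX19 probe sets moved much less. Probe set 2 read 43.6, 45.2 and 48.0 in sh-PNO1, against 41.8, 37.7 and 34.6 in sh-Ctrl (0.26 ± 0.07 SE, limma adjusted p = 0.0304). Probe set 4 read 12.2, 12.1 and 14.2 in sh-PNO1, against 10.6, 10.1 and 11.6 in sh-Ctrl (0.25 ± 0.08 SE, limma adjusted p = 0.0422). On both, every sh-PNO1 array lay above every sh-Ctrl array, by small margins. Neither call was firm when single arrays were left out. Probe set 2 kept its call only without sh-Ctrl replicate 1, and probe set 4 only without sh-Ctrl replicate 3. Probe set 3 read 29.6, 25.0 and 26.8 in sh-PNO1, against 24.6, 20.8 and 33.8 in sh-Ctrl, groups that overlapped (0.07 ± 0.16 SE, limma adjusted p = 0.8). Its sh-Ctrl replicate 3 array was the highest of all 6.

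Probe set 1 represents PEX19 only because of its values in sh-PNO1: in sh-Ctrl it averaged 24.7, and probe set 2 averaged 38.0. With the 4 probe sets averaged, PEX19 rose by 0.58 (limma adjusted p = 4.35e-05). The platform table ties the 4 probe sets to different transcript records of PEX19, and which transcripts each one detects was not tested. DCAF8, the nearest protein-coding gene on one side of PEX19 in the RefSeq table, rose by 0.26 ± 0.04 SE. COPA, on the other side, stood at 0.13 (limma adjusted p = 0.061).

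**Figure D2:**
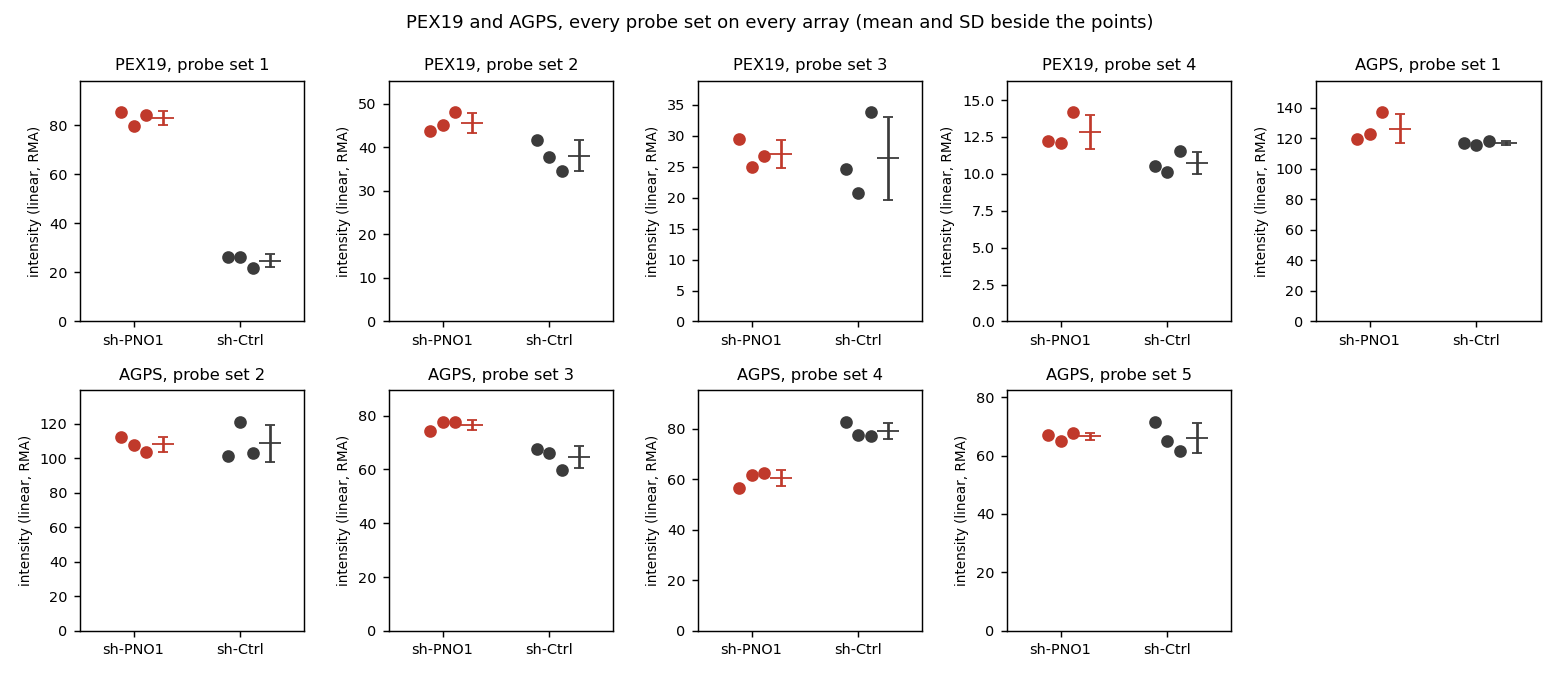
Intensity on every array for the 4 probe sets of PEX19 and the 5 of AGPS, with sh-PNO1 in red on the left and sh-Ctrl in grey on the right of each panel, and the mean with its SD (n = 3) beside the points. Only PEX19 probe set 1 shows a wide gap (82.9 against 24.7), while AGPS probe set 4 is lower in sh-PNO1 (60.3 against 79.1) and AGPS probe set 3 is higher (76.6 against 64.5).

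PEX16 and PEX3 work with PEX19 in the membrane. PEX16, which recruits PEX3 and other membrane proteins, read 126, 124 and 126 in sh-PNO1, against 103, 93.8 and 94.9 in sh-Ctrl (0.37 ± 0.05 SE, adjusted p = 0.000612 in limma). Its second probe set stood at 0.16, also with no overlap between the groups, and did not pass (limma adjusted p = 0.0605). PEX3, the membrane anchor on which PEX19 docks, read 171, 179 and 168 in sh-PNO1, against 189, 168 and 180 in sh-Ctrl. None of its 4 probe sets passed, and they lay between −0.08 and −0.02.

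Of the 3 measured genes for matrix import receptors and docking, PEX5 and PEX14 rose, both by less than 0.2 on the log2 scale, and PEX7 did not pass. PEX5, the receptor for most matrix enzymes, read 385, 378 and 386 in sh-PNO1, against 344, 340 and 345 in sh-Ctrl (0.16 ± 0.04 SE, adjusted p = 0.0107 in limma). The arrays of each group lay within a few percent of each other, so that this small step separated the groups. With both PEX5 probe sets averaged it was 0.14 and did not pass (adjusted p = 0.0603 in limma). PEX7, the receptor for the few enzymes with an N-terminal signal, read 105, 114 and 112 in sh-PNO1 and 112, 114 and 107 in sh-Ctrl (−0.0033 ± 0.05 SE). PEX14, the docking protein, rose by 0.15 ± 0.04 SE (adjusted p = 0.0388 in limma), but its other 4 probe sets stood at 0.02 to 0.11 and none passed. With all 5 averaged it was 0.07 (adjusted p = 0.136 in limma). The PEX14 call ended without any 1 array other than sh-PNO1 replicate 3, with adjusted p as high as 0.114 in limma.

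Receptor recycling depends on PEX2 and PEX10, which are RING ubiquitin ligases, and on the ATPase PEX6, which PEX26 holds at the membrane. PEX6 read 38.6, 39.4 and 37.0 in sh-PNO1, against 45.4, 43.7 and 42.3 in sh-Ctrl, a fall without overlap (−0.19 ± 0.05 SE, adjusted p = 0.0131 in limma). Its second probe set stood at −0.16 (limma adjusted p = 0.101). PEX2 rose by 0.14 ± 0.04 SE (adjusted p = 0.0359 in limma) on its brightest probe set, and its other 2 stood at −0.07 and 0.07. PEX10 fell by 0.12 ± 0.04 SE on the log2 scale (adjusted p = 0.044 in limma), and its other probe set stood at −0.04. Neither of these small calls held with fewer arrays: PEX2 kept its call only without sh-PNO1 replicate 2 (limma adjusted p elsewhere as high as 0.105), and PEX10 under none of the 6 omissions (as high as 0.108). PEX26 had 4 probe sets between −0.0084 and 0.05, and none passed.

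Of the PEX11 proteins, which elongate the membrane before division, PEX11A read 56.0, 56.8 and 58.2 in sh-PNO1, against 46.2, 43.4 and 46.8 in sh-Ctrl (0.33 ± 0.04 SE, adjusted p = 0.000802 in limma). Its second probe set stood at 0.26, with groups that overlapped (limma adjusted p = 0.0583). PEX11G, on its only probe set, read 28.5, 27.6 and 29.8 in sh-PNO1 and 28.9, 27.6 and 32.2 in sh-Ctrl (−0.04 ± 0.06 SE).

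Among the membrane transporters and channels ABCD3 had the largest increase. It is the abundant peroxisomal ABC transporter that imports branched-chain and bile acid intermediates as CoA esters. Its brightest probe set read 546, 555 and 533 in sh-PNO1, against 374, 418 and 391 in sh-Ctrl (0.47 ± 0.05 SE, adjusted p = 0.000254 in limma). On all 5 ABCD3 probe sets the sh-PNO1 arrays lay above the sh-Ctrl arrays, by 0.24 to 0.47 on the log2 scale, and 3 of them passed. ABCD4, of the same family but located mainly in lysosomes, where it serves vitamin B12 transport, read 137, 135 and 136 in sh-PNO1 and 134, 142 and 138 in sh-Ctrl. Its 3 probe sets lay between −0.02 and 0.09.

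PXMP2 and PXMP4, 2 integral membrane proteins, moved in opposite directions. PXMP2, which forms a channel for small solutes, read 275, 265 and 232 in sh-PNO1, against 309, 328 and 325 in sh-Ctrl (−0.32 ± 0.07 SE, adjusted p = 0.0078 in limma). All 3 PXMP2 probe sets fell, by 0.24 to 0.32 on the log2 scale, and none overlapped between groups. PXMP4 read 105, 126 and 107 in sh-PNO1, against 92.6, 91.7 and 89.5 in sh-Ctrl (0.30 ± 0.07 SE, adjusted p = 0.0112 in limma). PXMP4 varied more among the sh-PNO1 arrays (SD 11.3) than among the sh-Ctrl arrays (SD 1.56), and sh-PNO1 replicate 2 was the highest. Of its 4 probe sets 2 rose, while the lowest stood at −0.05, and their mean rose by 0.15.

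The upstream windows of PEX19, ABCD3, GNPAT and PXMP2 are shown because PEX19 had the largest change, ABCD3 the next largest, and GNPAT and PXMP2 passed on all of their probe sets with 1 sign. The sequences are from RefSeq, build GRCh38.p14, and each gives the 250 bases before a transcript start, 5′ to 3′ along the gene. Capitals mark 3 motifs searched on both strands. The first is the GC box, spelled GGGCGG, which Sp1-like factors bind. Another is the CCAAT box, known for binding by NF-Y. The last is the ETS site, spelled CCGGAAG here. PEX19 lies on the minus strand (chr1:160285152-160285401), and ABCD3 (chr1:94418139-94418388), GNPAT (chr1:231240962-231241211) and PXMP2 (chr12:132687337-132687586) on the plus strand.
PEX19: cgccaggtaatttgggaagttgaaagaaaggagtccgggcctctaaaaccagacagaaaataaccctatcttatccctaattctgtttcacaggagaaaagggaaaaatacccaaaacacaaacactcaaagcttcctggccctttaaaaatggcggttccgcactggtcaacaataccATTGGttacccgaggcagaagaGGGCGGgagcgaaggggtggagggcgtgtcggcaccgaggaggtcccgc
ABCD3: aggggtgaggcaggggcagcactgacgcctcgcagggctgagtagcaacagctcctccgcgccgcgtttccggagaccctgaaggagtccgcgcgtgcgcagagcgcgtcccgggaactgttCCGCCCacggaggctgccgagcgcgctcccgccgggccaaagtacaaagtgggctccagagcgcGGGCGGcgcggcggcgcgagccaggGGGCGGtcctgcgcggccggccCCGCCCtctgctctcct
GNPAT: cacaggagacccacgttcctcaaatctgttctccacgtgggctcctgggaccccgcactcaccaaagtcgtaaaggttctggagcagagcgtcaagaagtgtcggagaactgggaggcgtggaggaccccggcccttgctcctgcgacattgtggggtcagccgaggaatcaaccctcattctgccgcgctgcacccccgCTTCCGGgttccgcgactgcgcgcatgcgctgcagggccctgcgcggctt
PXMP2: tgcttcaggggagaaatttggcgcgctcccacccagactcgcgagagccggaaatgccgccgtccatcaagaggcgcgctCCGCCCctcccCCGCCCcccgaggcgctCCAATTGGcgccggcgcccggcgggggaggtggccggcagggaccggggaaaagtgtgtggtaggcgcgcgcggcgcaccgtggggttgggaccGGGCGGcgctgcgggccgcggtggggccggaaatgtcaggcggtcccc

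The 4 windows did not share 1 arrangement of these letters. That of ABCD3 held 4 GC boxes and neither of the other motifs, and that of GNPAT held 1 ETS site alone. PEX19 had 1 GC box and 1 CCAAT box, and PXMP2 had 3 GC boxes and 2 overlapping CCAAT matches, 1 on each strand. Of the 29 measured members, 22 had a window in the table, 7 of them more than 1, and the window farthest upstream stands for a gene. GC boxes were in 15 of these 22, against 42.2% of all 27305 genes in the table, CCAAT boxes in 8 against 33.0%, and ETS sites in 7 against 8.78%. The element AGGTCA, which PPAR and other nuclear receptors bind in pairs, was in 2 of the 22 (PXMP4 and AGPS), against 12.2% of all genes. The 27305 genes were not limited to those on the array, so these shares do not measure a difference from the genes tested. These matches describe letters only, and binding was not measured.

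The start of PXMP2 lies 245 bases from that of POLE, the catalytic subunit of DNA polymerase epsilon, which is transcribed the other way. POLE read 309, 320 and 286 in sh-PNO1, against 351, 362 and 365 in sh-Ctrl (−0.24 ± 0.05 SE, adjusted p = 0.0078 in limma). Both genes of this shared upstream region were thus lower in sh-PNO1. Whether the shared region bears on either was not tested.

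Fatty acid chains are shortened in peroxisomes by an acyl-CoA oxidase, a bifunctional enzyme and a thiolase. Of the 8 measured genes of this pathway 1 rose and 1 fell, where over all genes 20.0% rose and 14.2% fell. ACAA1, the thiolase of the last step, read 348, 354 and 389 in sh-PNO1, against 266, 262 and 280 in sh-Ctrl (0.43 ± 0.05 SE, adjusted p = 0.00057 in limma). Of its 6 probe sets 5 rose, and the sixth stood at 0.16 with groups that overlapped (limma adjusted p = 0.128). Without the suffixes _x_at and _s_at the ACAA1 value was 0.24, and it passed. ACOX2, the oxidase for branched chains and bile acid intermediates, read 84.2, 90.2 and 86.8 in sh-PNO1, against 105, 94.8 and 106 in sh-Ctrl (−0.22 ± 0.05 SE, adjusted p = 0.015 in limma). The highest sh-PNO1 array of ACOX2 came close to the lowest sh-Ctrl array, and the call was lost without sh-PNO1 replicate 1 or without sh-Ctrl replicate 1 or 3 (adjusted p up to 0.0582 in limma).

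The steps between the oxidase and the thiolase did not pass. HSD17B4, the bifunctional enzyme for very-long-chain and branched substrates, read 338, 326 and 348 in sh-PNO1 and 346, 315 and 349 in sh-Ctrl, and its 3 probe sets lay between −0.06 and 0.0037. EHHADH, the other bifunctional enzyme, read 39.7, 49.0 and 45.3 in sh-PNO1 and 48.1, 55.2 and 48.5 in sh-Ctrl (−0.18 ± 0.09 SE, adjusted p = 0.15 in limma). ACOX3, an oxidase of branched chains, read 43.2, 54.3 and 55.7 in sh-PNO1 and 42.9, 43.5 and 48.6 in sh-Ctrl (0.18 ± 0.10 SE, adjusted p = 0.225 in limma). In ACOX3 sh-PNO1 replicate 1 sat with the sh-Ctrl arrays, and without it the value was 0.29 and passed (adjusted p = 0.019 in limma).

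The auxiliary enzymes did not pass either. ECI2, an isomerase for unsaturated chains, read 545, 564 and 549 in sh-PNO1 and 535, 550 and 536 in sh-Ctrl (0.03 ± 0.04 SE). DECR2, a reductase for the same kind of chains, averaged 98.2 ± 5.13 in sh-PNO1 and 97.9 ± 4.61 in sh-Ctrl, and CRAT, the carnitine acetyltransferase shared with mitochondria, 117 ± 6.52 and 115 ± 4.12 in the same order (SD, n = 3 each).

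Neither gene of alpha-oxidation, which removes 1 carbon from chains with a methyl branch, passed. PHYH, the phytanoyl-CoA hydroxylase, read 80.9, 79.4 and 69.8 in sh-PNO1 and 79.1, 83.3 and 77.7 in sh-Ctrl (−0.06 ± 0.06 SE). HACL1, the lyase that follows, read 150, 136 and 141 in sh-PNO1, against 135, 122 and 123 in sh-Ctrl, groups that just failed to overlap (0.16 ± 0.06 SE, adjusted p = 0.0614 in limma). HACL1 passed under 6 of the 17 alternatives tried, with a value of 0.12 to 0.21 over all 17.

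**Figure D3:**
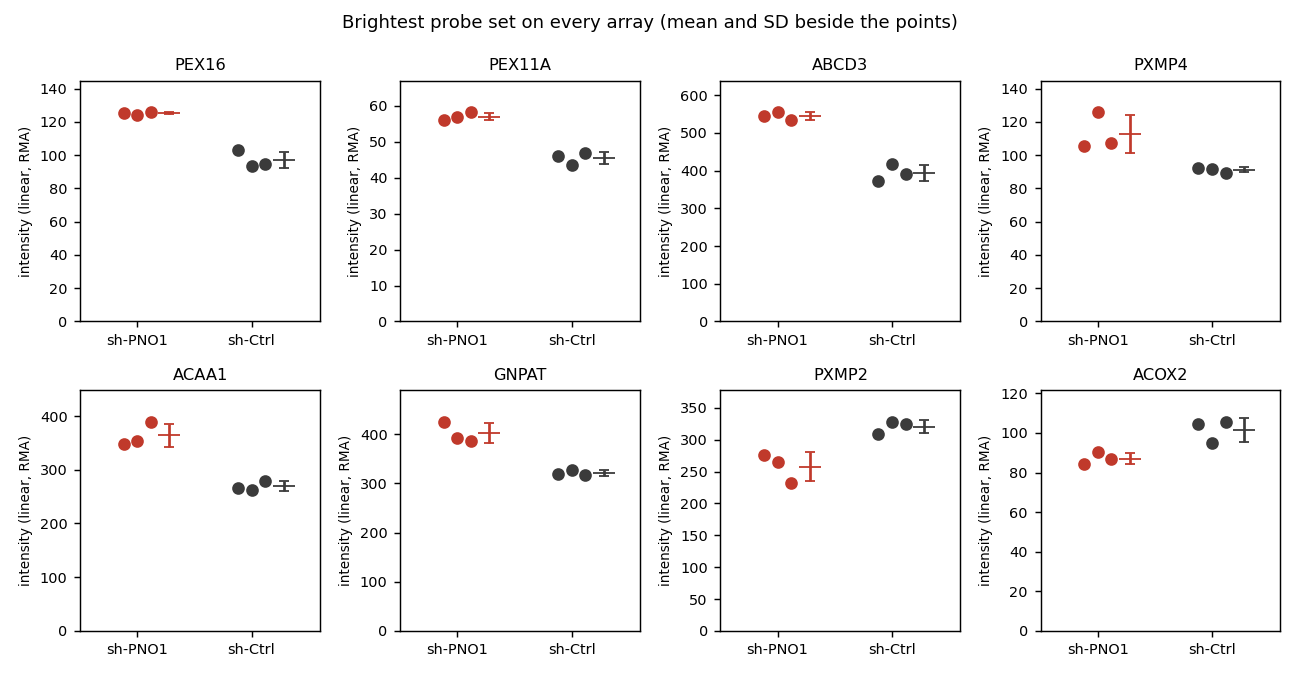
Intensity of the brightest probe set on every array for 8 members that passed, with sh-PNO1 in red on the left and sh-Ctrl in grey on the right of each panel, and the mean with its SD (n = 3) beside the points. All axes start at 0. PEX16, PEX11A, ABCD3, PXMP4, ACAA1 and GNPAT are higher and PXMP2 and ACOX2 lower in sh-PNO1, by at most 1.38 times.

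Ether lipid synthesis starts in the peroxisome with GNPAT, which acylates dihydroxyacetone phosphate, and AGPS, which swaps that acyl chain for a fatty alcohol supplied by FAR1. GNPAT rose on all 4 probe sets, by 0.21 to 0.32, and by 0.21 without the suffixes _x_at and _s_at. Its brightest read 425, 393 and 387 in sh-PNO1, against 319, 328 and 317 in sh-Ctrl (0.32 ± 0.05 SE, adjusted p = 0.00133 in limma). FAR1, the fatty acyl-CoA reductase that limits the pathway, read 181, 181 and 187 in sh-PNO1, against 168, 176 and 167 in sh-Ctrl (0.10 ± 0.04 SE, adjusted p = 0.102 in limma). Its other 3 probe sets lay between −0.12 and 0.10, and none passed.

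AGPS gave no single direction. Probe set 4 read 56.6, 61.8 and 62.5 in sh-PNO1, against 82.7, 77.5 and 77.0 in sh-Ctrl, a fall without overlap (−0.39 ± 0.06 SE, limma adjusted p = 0.00128). Probe set 3 read 74.4, 77.7 and 77.7 in sh-PNO1, against 67.4, 66.2 and 59.8 in sh-Ctrl, a rise without overlap (0.25 ± 0.06 SE, limma adjusted p = 0.0125). The brightest, probe set 1, stood at 0.11 ± 0.06 SE and did not pass (limma adjusted p = 0.22), and the other 2 stood at −0.0035 and 0.01. The mean of all 5 was −0.0044 (limma adjusted p = 0.948), and a direction for AGPS thus depends on the probe set chosen.

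Of 34 measured genes of other peroxisomal enzymes and transporters, 6 rose and 6 fell, with a median log2 fold change of −0.012 (0.025 for all genes). Over all genes the shares were 20.0% and 14.2%, so these counts lay near the background. Without sh-Ctrl replicate 3 the count that rose was 3. LONP2, the peroxisomal Lon protease, rose by 0.34 ± 0.04 SE on its brightest of 4 probe sets, all of which passed. It read 229, 229 and 236 in sh-PNO1, against 189, 181 and 178 in sh-Ctrl. HSDL2, a dehydrogenase-like protein, rose by 0.31 ± 0.04 SE with all 3 probe sets passing. EPHX2, the soluble epoxide hydrolase, stood at −0.46 ± 0.08 SE and passed on 1 of 2 probe sets, the other at 0.08; their mean was −0.19. ISOC1 stood at −0.23 ± 0.04 SE on its only probe set and passed.

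Among 10 genes of peroxisome division and turnover, most of which also act on mitochondria, 4 rose and 3 fell, with a median of 0.098. Of all genes 20.0% rose and 14.2% fell, with a median of 0.025. ATAD1, counted as fallen, gave no single direction: 1 of its 4 probe sets rose and 1 fell. They ranged from −0.14, the value of its brightest, to 0.43. MFF, the membrane adaptor that recruits the fission GTPase DNM1L to both organelles, fell on all 5 of its probe sets. It read 208, 216 and 221 in sh-PNO1, against 387, 372 and 389 in sh-Ctrl (−0.84 ± 0.04 SE, adjusted p = 7.93e-06 in limma). The 5 MFF probe sets ranged from −1.18 to −0.40. DNM1L itself stood at 0.07 on its brightest probe set (adjusted p = 0.285 in limma), and 1 of its 4 probe sets rose.

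The genes of this list that rose included USP30, a deubiquitinase of both organelles that opposes their removal by autophagy, and NBR1, an autophagy receptor. USP30 read 116, 111 and 106 in sh-PNO1, against 81.7, 79.5 and 76.4 in sh-Ctrl (0.49 ± 0.05 SE, adjusted p = 0.000174 in limma), and both of its probe sets rose. MARCHF5, a ubiquitin ligase of the outer mitochondrial membrane, rose by 0.48 ± 0.05 SE on its brightest probe set and on 2 of 3 in all. NBR1 rose by 0.26 ± 0.04 SE, on 3 of its 6 probe sets. Without probe sets of suffix _x_at or _s_at, which can share probes with other transcripts, it stood at 0.099 and did not pass (adjusted p = 0.58 in limma). All these lists, like the members, were chosen with earlier results of these data known.

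**Figure D4:**
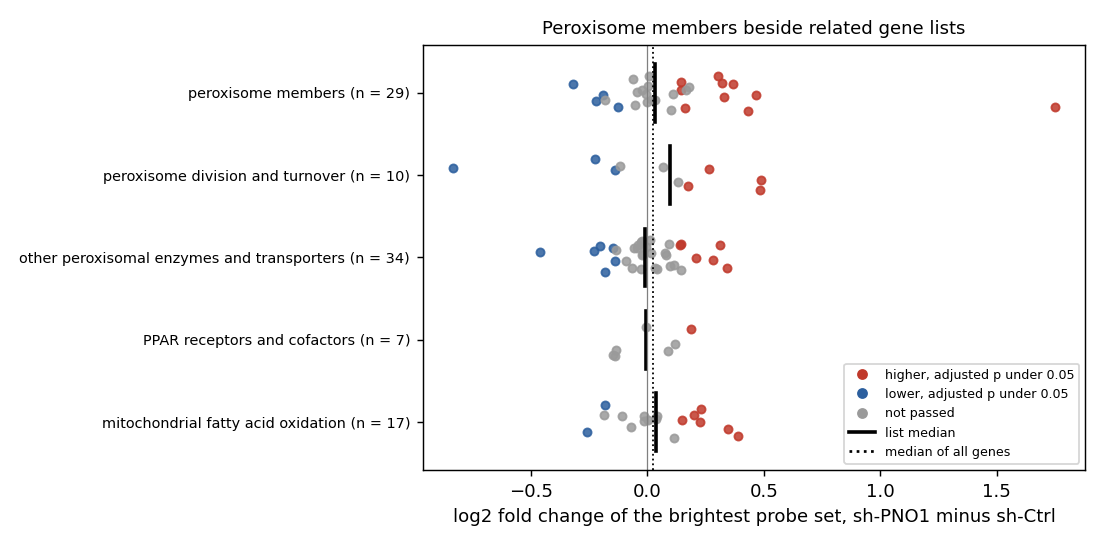
Log2 fold change of the brightest probe set, sh-PNO1 minus sh-Ctrl, for the 29 members and for 4 related lists, 1 point per gene, coloured by the result of the fit over 18132 genes. Thick bars are list medians and the dotted line is the median of all genes, 0.025; every list median lies between −0.012 and 0.098, and PEX19 (1.75) and MFF (−0.84) lie farthest out.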

How the data were processed

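RNA from HCT116 cells, 3 sh-PNO1 and 3 sh-Ctrl samples, was labelled as biotinylated cRNA and read on Affymetrix arrays, per the labels' protocols. For 49395 probe sets the table holds deposited linear intensities from RMA, per the submitters' processing notes, and log2 of these deposited values was taken here. The RMA version, background step and build were not given in the sources used here. The number of arrays limits the precision.

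Groups and replicate numbers came from the titles. After 102 controls were left out, limma 3.58.1 in R 4.3.3 was fitted to log2 intensities (lmFit and eBayes, no covariate, all 6 arrays) over 49293 probe sets, and over 18132 genes by their brightest probe set with 1 symbol, with Benjamini-Hochberg adjustment over each fit. Of 44988 probe sets with 1 symbol, 44961 were found by gene identifier in the GRCh38.p14 gene table. The fit was tested on simulated data.

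Members, lists and tests were chosen with earlier results of these data known. The rule for naming gave array values for members with a change of at least 0.5, with discordant probe sets, or at least 1 per role, and up to 4 genes of smallest adjusted p in each other list. DCAF8, COPA, POLE, DNM1L, PPARA, ATAD1, HADH, ACAA2 and DECR2 or ECI2 beside their counterparts were named after their values were seen. The 4 windows shown and the motifs searched were also chosen then. Alternatives were a replicate block, a trend with a robust prior, array weights, repeated quantile normalisation, equal medians, the dimmest 30% left out, an adjusted p under 0.01, treat against 0.2, probe sets averaged, the most variable probe set, no suffix _x_at or _s_at, and each array left out.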

Additional observations from a re-analysis of the deposited data

How the results depend on the processing

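The count of members that rose (10) and fell (4) became 6 and 1 at an adjusted p under 0.01, and 4 and 0 when tested with limma's treat against a log2 change of 0.2, the 4 being PEX16, PEX19, ABCD3 and ACAA1. At an unadjusted p under 0.05, the limma fit had 12 higher and 4 lower members. Probe sets counted 12 and 2 at 0.01, and 4 and 1 with treat, against 21 and 6. With single arrays left out, members that rose numbered 8 to 9, members that fell 2 to 3, probe sets that rose 16 to 21 and probe sets that fell 4 to 6. The shares of all genes and probe sets were counted only at an adjusted p under 0.05 on all 6 arrays. Whether the member counts moved more or less than those shares was not tested. The members that fell numbered 2 without sh-PNO1 replicate 1, without sh-Ctrl replicate 1 and without sh-Ctrl replicate 3. Without sh-PNO1 replicate 2, the array with the high ACTB difference, 9 rose and 3 fell. PNO1 stayed between −2.35 and −2.32 with single arrays left out. PEX16, PEX19, ABCD3 and ACAA1 kept their call and direction under all 17 alternatives, PEX19 at 0.58 to 1.80. For PEX19 every alternative used probe set 1, alone or in the mean of all PEX19 probe sets, so none was independent of that probe set. PEX2 stood at −0.0699 (limma adjusted p = 0.411) without the suffixes _x_at or _s_at, and AGPS at −0.39 (limma adjusted p = 0.00096) by its most variable probe set. The causes were not tested. With the replicate block, 10 members rose and 4 fell: PEX2 (limma adjusted p = 0.0536) and PEX10 (0.0875) were lost, HACL1 (0.0316) and EHHADH (0.0416) gained; probe sets numbered 22 and 7. Whether same-numbered arrays share more than a number is not stated. Their deviations correlated at −0.04, 0.10 and −0.03, and 2 of 6 arrays correlated best with their own number. With so few arrays these values cannot settle it.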

Other observations

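Mitochondria carry out the other pathway of fatty acid oxidation, and among its 17 measured genes 6 rose and 2 fell, with a median log2 fold change of 0.04, against 0.025 for all genes. Of all genes 20.0% rose and 14.2% fell. Over the alternatives 2 to 7 of them rose and 0 to 4 fell, and 1 fell without sh-PNO1 replicate 1 or 3 or sh-Ctrl replicate 1 or 3. ETFA, a subunit of the flavoprotein that takes electrons from the acyl-CoA dehydrogenases, read 781, 748 and 749 in sh-PNO1, against 580, 592 and 569 in sh-Ctrl (0.39 ± 0.04 SE, limma adjusted p = 0.00022). DECR1, the mitochondrial counterpart of DECR2, rose by 0.34 ± 0.04 SE. ECI1, the counterpart of ECI2, rose by 0.23 ± 0.04 SE, and CPT1A, which admits long chains to mitochondria, by 0.23 ± 0.04 SE on 1 of 2 probe sets. With both averaged, CPT1A stood at 0.12 and did not pass (limma adjusted p = 0.146). The 2 that fell were HADH and ACAA2. HADH fell on both of its probe sets, at −0.18 ± 0.04 SE on the brightest and −0.74 on the other. The peroxisomal enzymes DECR2 and ECI2 did not pass, at 0.0047 and 0.03. The thiolase pair went the other way. Peroxisomal ACAA1 rose by 0.43, and mitochondrial ACAA2 stood at −0.26 ± 0.07 SE on its only probe set (limma adjusted p = 0.0205). The differences between the counterparts were not tested.

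Of 7 PPAR receptors and cofactors, the transcription factors and partners known for inducing peroxisomal genes in rodent liver, RXRB rose (0.19 ± 0.05 SE, limma adjusted p = 0.022). The other 6 did not pass. Over all genes 20.0% rose and 14.2% fell. The RXRB call ended under 7 of 17 alternatives, among them the omission of sh-PNO1 replicate 1 or 3 or sh-Ctrl replicate 2 or 3 (limma adjusted p as high as 0.0744). Over the 17 alternatives its value ran from 0.13 to 0.50. The 5 RXRB probe sets lay between −0.11 and 0.50, and 2 of them rose. PPARA read 33.8, 35.8 and 39.3 in sh-PNO1 and 44.2, 34.4 and 41.3 in sh-Ctrl, groups that overlapped (−0.13 ± 0.10 SE); 1 of its 9 probe sets fell. RXRA stood at −0.14, PPARD at 0.12 and PPARGC1B at −0.15, and none of these passed. The platform table gives 2 dim probe sets to both PXMP2 and PGAM5. One stood at 0.17 (limma adjusted p = 0.0439) and the other at −0.06 (limma adjusted p = 0.509), while the 3 probe sets of PXMP2 alone fell.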
